A study of Mus musculus with 42 samples.

Results

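The genes described here are macrophage and leukocyte genes measured in whole tibialis anterior (TA) muscle of mice, a bulk tissue in which immune cells are a minority beside myofibers. They were chosen by name, as genes known to be expressed by macrophages or by leukocytes in general, and a gene was taken from the deposited table of normalized counts wherever its symbol matched one of 42 names. Since Emr1 and Adgre1 are an older and a current symbol of the same gene, which the table lists as Emr1, the names gave 41 genes of the 13809 in the table. The matching used names alone, but earlier results of these data were known when the names were chosen. The 41 genes fall into 7 groups by role: 6 pan-leukocyte genes, 11 genes of macrophage identity and surface receptors, 4 Fc receptors and their adaptors, 6 phagocyte enzymes and secreted proteins, the 3 chains of complement C1q, 7 chemokines and 4 genes of major histocompatibility complex (MHC) class II.

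RNAseq was made from TA muscle of male mice aged 4 months, in 42 libraries that the study ran as 2 sets. The study's methods name a C57BL/6J background for the Sesn1SkM-Tg line, and none for the Sesn2SkM-Tg or Sesn1KO lines. Set 1 (22 libraries) held wild-type (WT), Sesn1SkM-Tg and Sesn2SkM-Tg mice, each basal or with the hindlimb immobilized for 3 days. Set 2 (20 libraries) held WT and Sesn1KO mice, basal or immobilized for 3 days, and WT mice 3 days after denervation by removal of a piece of the sciatic nerve, and these denervated mice were compared with basal mice, not with a sham operation. Each group had 4 libraries, but the immobilized WT and Sesn1SkM-Tg groups of set 1 had 3. The Sesn1SkM-Tg line carries human Sesn1 under the MCK promoter, which is active in skeletal muscle, and the Sesn2SkM-Tg line carries human Sesn2 under a Tet-regulated promoter driven by MCK-tTA. Both transgenes are thus aimed at the myofiber and not at immune cells, while the Sesn1KO mice are a knockout of the whole body. The labels give no litters or cages, so p-values measure the spread between these libraries.

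Macrophages of resting muscle sit in the connective tissue between fibers and carry scavenger receptors such as CD163 and CD206 (Mrc1), complement C1q and MHC class II. After injury, blood monocytes that express the chemokine receptor CCR2 enter the muscle, become macrophages, clear debris and later help regeneration. CD68, galectin-3 (Lgals3), GPNMB and osteopontin (Spp1) are proteins of lysosomes or of secretion that phagocytes produce in large amounts when they take up cell remains. In bulk muscle, fewer or more cells of a type and less or more RNA per cell cannot be told apart, and several of these genes can also be expressed by fibers or other cells.

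Before comparisons, the table was checked as a whole. Summed over all genes, a library held between 722430 and 1276769 units, and the reads behind them are unknown, so no counting error can be given. Sesn1 stood at 8.41 to 10 in the basal libraries labelled Sesn1KO against 22.5 to 29.7 in basal WT of set 2. After immobilization, however, it stood at 19.4 to 37.3 in the libraries labelled Sesn1KO and at 30.7 to 53.1 in WT, so that these groups overlapped. The part of Sesn1 that the knockout allele lacks is not given in the sources used here. Sesn2 stood at 6.54 to 14.5 in the Sesn2SkM-Tg libraries against 1.86 to 3.39 in WT of set 1, and Sesn1 at 23.0 to 77.6 in the Sesn1SkM-Tg libraries against 12.4 to 22.1. Of the defining markers of the tissue, 8 myofiber genes summed to between 49930 and 154800 over all groups, which marks every library as muscle.

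In basal WT muscle the 41 genes were low on this scale. Per kilobase of exon, the highest mean levels in set 2 were those of lysozyme (Lyz2, 33.7), the class II invariant chain (Cd74, 32.4), the chemokine Cxcl14 (28.2) and the carbonyl reductase Cbr2 (20.4). The class II chains H2-Eb1 (11.5) and H2-Ab1 (9.01), the C1q chains C1qa (8.02) and C1qb (7.94) and the class II chain H2-Aa (7.11) followed. The lowest were Ptprc (0.261), which encodes CD45, the chemokine receptor Cx3cr1 (0.134) and the neutrophil-attracting chemokine Cxcl1 (0.113). In set 1 the same 4 genes, Lyz2, Cd74, Cxcl14 and Cbr2, had between 14.4 and 17.6 per kilobase, and only Spp1 exceeded them in its mean (17.7), because a single basal library read 111.5 while the others read 0.266 to 4.50.

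The mean of log2(value + 1) over the 41 genes differed between libraries of a group by as much as it differed between some groups. In the immobilized WT muscle of set 1 it was 3.56, 3.36 and 4.56, and in replicate 3, the highest, 39 of the 41 genes had their group maximum. In the basal WT muscle of set 2 it was 2.33, 2.26, 3.18 and 1.74, and 34 of the 41 genes were highest in replicate 3. Immobilized Sesn1KO muscle ranged still wider, at 2.94, 4.16, 2.03 and 2.61. Denervated muscle had 3.11, 2.67, 2.16 and 1.96. These libraries stand apart for nearly the whole list at once, so the number of genes called in each comparison is also given without the libraries that moved it most.

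**Figure D1:**
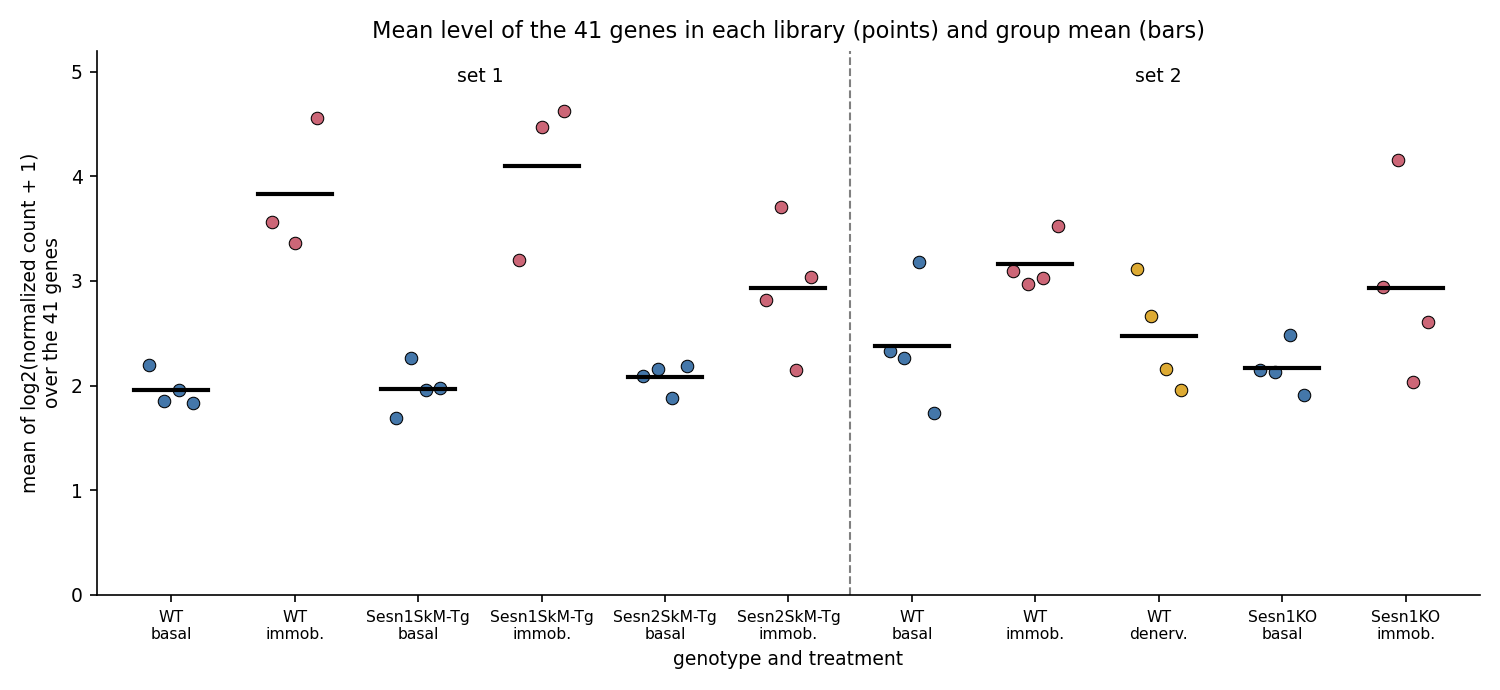
Each point is a library and shows the mean of log2(normalized count + 1) over the 41 genes, with bars for group means, and the 11 groups of both sets stand along the x axis by genotype and treatment. Immobilized WT and Sesn1SkM-Tg muscle of set 1 lie above their basal groups, with means of 3.36 or more in WT and of 3.20 or more in Sesn1SkM-Tg, while in set 2 the basal WT library at 3.18 lies among the immobilized ones.

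The first comparison asks what 3 days of immobilization do to these genes in WT muscle of set 1. Nearly the whole list rose. Of 41 genes, 37 were called higher and 0 lower (limma, adjusted p under 0.05 with a log2 change of 0.25 or more either way), where 14.9% of all 13705 genes tested were called higher and 14.5% lower. The median log2 fold change of the list was 1.97, against 0.00 for all genes. The basal and immobilized libraries did not overlap for 38 of the 41 genes, compared with 16.9% of all genes in that direction. Without replicate 3 of the immobilized group 26 genes were called. Rescaling every library to the same sum moved the median of all genes by 0.28 and left 38 of the 41 genes higher.

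Cathepsin S (Ctss), a lysosomal protease that cuts the class II invariant chain, had the largest log2 change of the list in this comparison. It read 4.34, 2.66, 2.01 and 1.95 in basal and 17.2, 19.2 and 50.3 in immobilized muscle. Its log2 fold change was 2.88 ± 0.46 (SE) with an adjusted p of 1.6e-04, and the groups were far apart. Galectin-3, a secreted sugar-binding protein of activated phagocytes, read 3.48, 1.08, 1.57 and 1.68 in basal and 13.7, 14.7 and 36.2 in immobilized libraries. The change was 2.86 ± 0.39 (adjusted p = 4.7e-05). Cd68, a glycoprotein of macrophage lysosomes, read 2.75, 1.503, 2.52 and 7.47 against 19.0, 31.3 and 38.1 (2.84 ± 0.40, adjusted p = 5.5e-05). Every immobilized library exceeded the highest basal one in all 3 genes.

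Among the leukocyte genes, Ptprc, the tyrosine phosphatase carried by all white blood cells, read 2.38, 1.35, 1.75 and 0.879 in basal and 6.39, 6.38 and 19.4 in immobilized muscle (log2 fold change 2.03 ± 0.41, adjusted p = 0.0012). The other 5 pan-leukocyte genes were also higher, with changes of up to 2.23 (Laptm5). Ccr2, the receptor that draws monocytes from blood, had the largest change of the receptors after Cd68. It read 3.78, 2.03, 2.71 and 1.43 in basal and 15.8, 11.2 and 49.1 in immobilized muscle (2.69 ± 0.48, adjusted p = 4.8e-04). Emr1, the F4/80 antigen of mouse macrophages, rose from 2.99, 1.79, 0.994 and 2.32 to 8.27, 6.63 and 13.0 (1.77 ± 0.34, adjusted p = 8.9e-04).

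Csf1r, the receptor for the macrophage growth factor CSF-1, read 12.0, 7.15, 9.25 and 6.86 in basal and 25.2, 23.5 and 43.3 in immobilized muscle (1.67 ± 0.32, adjusted p = 7.8e-04). Itgam, the alpha chain of the integrin CD11b, rose by 2.30 ± 0.46 (adjusted p = 0.0011). Its exons overlap those of another gene model on the same strand, so reads could have been split between them. All 4 Fc receptor genes and adaptors, all 3 C1q chains and the scavenger receptors Mrc1 (2.38) and Cd163 (1.39) were higher as well. The 3 C1q chains, which together form one protein, moved by like amounts, 2.24 (C1qa), 2.51 (C1qb) and 2.15 (C1qc).

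Genes of antigen presentation were among those with smaller changes. The class II genes H2-Aa, H2-Ab1, H2-Eb1 and Cd74 rose by 1.34, 1.23, 1.05 and 0.98, with adjusted p between 0.01 and 0.048. H2-Aa read 15.2, 11.9, 13.1 and 12.4 in basal and 20.4, 31.2 and 64.8 in immobilized muscle, so that replicate 3 held the highest value by far, and without it the change was 0.90 (adjusted p = 0.11). H2-Ab1 was likewise lost without replicate 3 (0.82, adjusted p = 0.14), H2-Eb1 in 5 and Cd74 in 6 of the 7 fits that left out 1 library, with adjusted p up to 0.3 and 0.32. Cd163 was lost without replicate 1 or without replicate 3 of the immobilized group (adjusted p up to 0.061).

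The 4 genes not called were Cbr2 (0.12 ± 0.17), Spp1 (0.59 ± 1.10), Ccl2 (1.48 ± 0.57, adjusted p = 0.057) and Cxcl1 (0.66 ± 0.46). Ccl2 and Ccl7 are chemokines that CCR2 recognizes. Ccl7 rose by 1.97 ± 0.52 (adjusted p = 0.0078), though not without replicate 3 of the immobilized group (adjusted p = 0.084). Cbr2 read 25.5, 20.8, 14.2 and 16.0 in basal and 21.3, 18.2 and 21.6 in immobilized muscle, and was the gene of the list with the smallest change.

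Markers of other cells rose beside the list. In WT muscle of set 1, 4 of 7 fibroblast, 4 of 6 Schwann cell, 3 of 7 endothelial and 3 of 6 smooth muscle and pericyte genes were called higher, and 3 of 8 myofiber genes lower. The summed fibroblast markers stood at 462.2 to 1173 in basal and 929.4 to 1721 in immobilized muscle, and the myofiber markers at 113300 to 141600 and 74500 to 91600. The part of these cells in the result was not tested.

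Sesn1SkM-Tg muscle showed the same breadth. After immobilization 38 of the 41 genes were higher and 0 lower, where 18.2% and 16.5% of all genes were called, and the median of the list was 2.20. Between 36 and 38 genes were called when any 1 library was left out. Cd68 read 0.372, 1.99, 1.69 and 1.16 in basal and 19.0, 35.0 and 41.1 in immobilized muscle (3.82 ± 0.40, adjusted p = 2.5e-06). Ccr2 read 1.42, 1.97, 2.00 and 1.21 against 8.79, 42.2 and 36.2 (3.26 ± 0.48, adjusted p = 7.5e-05). Ccl8, a monocyte-attracting chemokine, read 0.147, 0.572, 0.212 and 0.288 against 4.29, 19.6 and 10.8 (3.07 ± 0.35, adjusted p = 6.1e-06). In these genes all 3 immobilized libraries lay above every basal one. The 3 genes not called were Cbr2 (-0.02), Spp1 (1.58) and Cxcl1 (0.83). Here too other markers moved with the list, as 6 of 7 fibroblast, 6 of 6 Schwann cell, 5 of 7 endothelial and 5 of 6 smooth muscle and pericyte genes were higher, and of 8 myofiber genes 1 was higher and 3 were lower. The fibroblast sum went from between 462.7 and 725.2 to between 1086 and 3097, and the myofiber sum from between 118500 and 122500 to between 71940 and 104900. Their part in the result was not tested.

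Sesn2SkM-Tg muscle gave fewer calls. Of the 41 genes, 15 were higher and 1 lower after immobilization, with 15.0% and 15.7% of all genes called in these directions, and the median of the list was 0.84. At an unadjusted p under 0.05 the number was 24, and the share of all genes under that p is not given here. Leaving out replicate 2 of the immobilized group, which had the highest mean of the list (3.71), left 7 calls, and leaving out replicate 3, the lowest (2.15), gave 25. Removal of replicate 4 of the immobilized group or of replicate 3 of the basal group gave 8 in each case. The genes called in every one of the 8 fits were Cd68, Cbr2, Fcer1g, Ctss, Lgals3, Gpnmb and Ccl8. Other cell types also moved in this genotype. Of the markers of other cells, 6 of 7 endothelial, 5 of 6 Schwann cell and 5 of 6 smooth muscle and pericyte genes were higher. The myofiber sum went from between 132800 and 154800 to between 71050 and 99570. The fibroblast sum overlapped, at 474.8 to 680.3 in basal and 444.3 to 928.7 in immobilized muscle. The part of these cells in the result was not tested.

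Cd68 had in Sesn2SkM-Tg muscle the highest reading of any library in the series. It stood at 2.83, 3.51, 2.06 and 2.48 in basal and at 29.5, 104.5, 44.7 and 44.7 in immobilized muscle (3.79 ± 0.37, adjusted p = 4.0e-07). Lgals3 rose from 2.03, 3.95, 2.72 and 3.37 to 18.8, 27.8, 12.4 and 11.7 (2.16 ± 0.36, adjusted p = 1.5e-04). By contrast, Csf1r read 10.1, 12.2, 8.14 and 8.11 in basal and 13.2, 17.2, 6.83 and 15.5 in immobilized muscle (0.36 ± 0.30, adjusted p = 0.38), with overlapping groups. Class II genes were near their basal level, with log2 changes from -0.28 (Cd74) to 0.19 (H2-Aa), none of them called.

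Cbr2 was the gene that fell in Sesn2SkM-Tg muscle. It read 31.2, 39.0, 37.5 and 33.7 in basal and 12.2, 12.0, 12.2 and 14.7 in immobilized libraries, without overlap. The log2 fold change was -1.40 ± 0.16 (adjusted p = 2.3e-06), the lowest of the list in any of the comparisons of immobilized with basal muscle. Cbr2 is used as a marker of resident macrophages of muscle, and is a mitochondrial enzyme that other tissues such as lung and fat also express.

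WT muscle of set 2 repeats the immobilization of WT mice with other animals. Here 10 of the 41 genes were higher and 0 lower, compared with 16.2% and 17.7% of all genes, and the median of the list was 0.83. At an unadjusted p under 0.05 there were 20, and the share of all genes under that p is not given here. Basal and immobilized libraries did not overlap for 5 of the 41 genes, where 16.2% of all genes were apart in that direction. The 10 called genes were Laptm5, Itgam, Ccr2, Cd68, Mrc1, Tyrobp, Fcgr2b, Cybb, Lgals3 and Gpnmb, and all 10 were also higher in set 1. They are 27.0% of the genes called in set 1.

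The basal replicate 3 in which most of the list was highest weighed on this count, which was 16 without it and 4 without basal replicate 4, the lowest. It was 6 without basal replicate 2 and 5 without immobilized replicate 4, and only Cd68, Mrc1 and Tyrobp were called in all 8 such fits. Endothelial markers (6 of 7), smooth muscle and pericyte markers (5 of 6) and adipocyte markers (4 of 6) were lower in the same libraries. In set 1 the endothelial markers were higher for 3 and lower for 1, the smooth muscle and pericyte markers higher for 3 and lower for 0, and the adipocyte markers neither higher nor lower for any of the 6. Their part in the difference between the sets was not tested.

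Cd68 again separated the groups fully. It read 0.655, 1.42, 2.59 and 0.797 in basal and 21.9, 18.02, 21.4 and 29.4 in immobilized muscle (3.37 ± 0.29, adjusted p = 4.1e-08). Lgals3 rose less, from 1.90, 1.10, 2.63 and 1.71 to 5.37, 4.79, 5.37 and 8.70 (1.31 ± 0.44, adjusted p = 0.025), and was lost in 2 of the 8 fits without 1 library (adjusted p up to 0.071). Tyrobp, the adaptor DAP12 through which several myeloid receptors signal, read 2.62, 1.09, 2.95 and 0.659 against 8.601, 7.15, 4.88 and 9.38 (1.65 ± 0.41, adjusted p = 0.0033). None of these groups overlapped.

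Other genes had a wide spread among the basal libraries. Ccr2 read 3.21, 3.22, 11.5 and 0.781 in basal and 11.8, 10.4, 10.2 and 27.1 in immobilized muscle (1.71 ± 0.53, adjusted p = 0.015), so that basal replicate 3 stood among the immobilized libraries. Its call was lost in 2 of the 8 fits without 1 library (adjusted p up to 0.067). Ptprc read 3.42, 3.81, 9.96 and 1.95 against 5.77, 4.39, 3.60 and 7.08, with a change of 0.25 ± 0.40 (adjusted p = 0.68). Emr1 (0.36 ± 0.45) and Csf1r (1.04 ± 0.42, adjusted p = 0.064) were not called. The class II genes had log2 changes between -0.11 and 0.06.

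In libraries labelled Sesn1KO, 8 of the 41 genes were higher and 1 lower after immobilization, beside 17.2% and 19.9% of all genes, and the median was 0.70. The number at an unadjusted p under 0.05 was 13, and the share of all genes under that p is not given here. Leaving out immobilized replicate 3, the lowest library, gave 17 calls, while leaving out immobilized replicate 2, the highest, or basal replicate 2 gave 5 each. Cd68 (3.43 ± 0.29, adjusted p = 2.0e-08), Lgals3, Gpnmb and Ccl2 were called in all 8 of these fits. Of the mast cell markers 5 of 5 were lower in the same comparison, of endothelial markers 3 of 7.

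Galectin-3 illustrates the spread in this genotype. Lgals3 read 2.63, 1.39, 2.96 and 1.81 in basal and 6.63, 49.5, 4.78 and 5.93 in immobilized muscle (1.83 ± 0.44, adjusted p = 0.0024). All immobilized libraries lay above the basal ones, and replicate 2 lay far above the other 3. Ccl6, a chemokine of myeloid cells, read 4.38, 2.35, 6.03 and 2.899 against 18.4, 81.0, 3.44 and 5.47 (1.63 ± 0.61, adjusted p = 0.038), and lost its call in 5 of the 8 fits without 1 library (adjusted p up to 0.19). Fcgr2b and Fcgr3 are near copies in part of their sequence, so reads may have been split between these 2 genes. Cbr2 fell by 0.62 on the log2 scale (SE 0.23, adjusted p = 0.038) and lost its call in 5 of 8 fits (adjusted p up to 0.17) and when libraries were rescaled to equal sums.

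Across the 5 comparisons of immobilized with basal muscle, 5 genes were higher in all: Cd68, Tyrobp, Fcgr2b, Lgals3 and Gpnmb. Of all genes 14.9% to 18.2% were higher in each single comparison, and the share higher in all 5 is not given here. When only genes called in every fit without 1 library were counted, 1 gene, Cd68, was higher in all 5 comparisons, Lgals3 was higher in 4, and Tyrobp, Gpnmb and 4 other genes were higher in 3. With all libraries, Itgam, Ccr2 and Ccl6 were higher in 4, another 11 genes in 3 and 19 in 2. For 18 of these 19 the 2 were WT of set 1 and Sesn1SkM-Tg, and for Ccl2 they were Sesn1SkM-Tg and Sesn1KO. Cbr2, Spp1 and Cxcl1 were higher in none. Gpnmb, a glycoprotein of lysosomes in lipid-laden phagocytes, moved little but evenly, by 0.90, 1.21, 1.22, 0.95 and 1.41 in WT of set 1, Sesn1SkM-Tg, Sesn2SkM-Tg, WT of set 2 and Sesn1KO. Cd68 rose by at least 2.84 on the log2 scale in each of them.

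**Figure D2:**
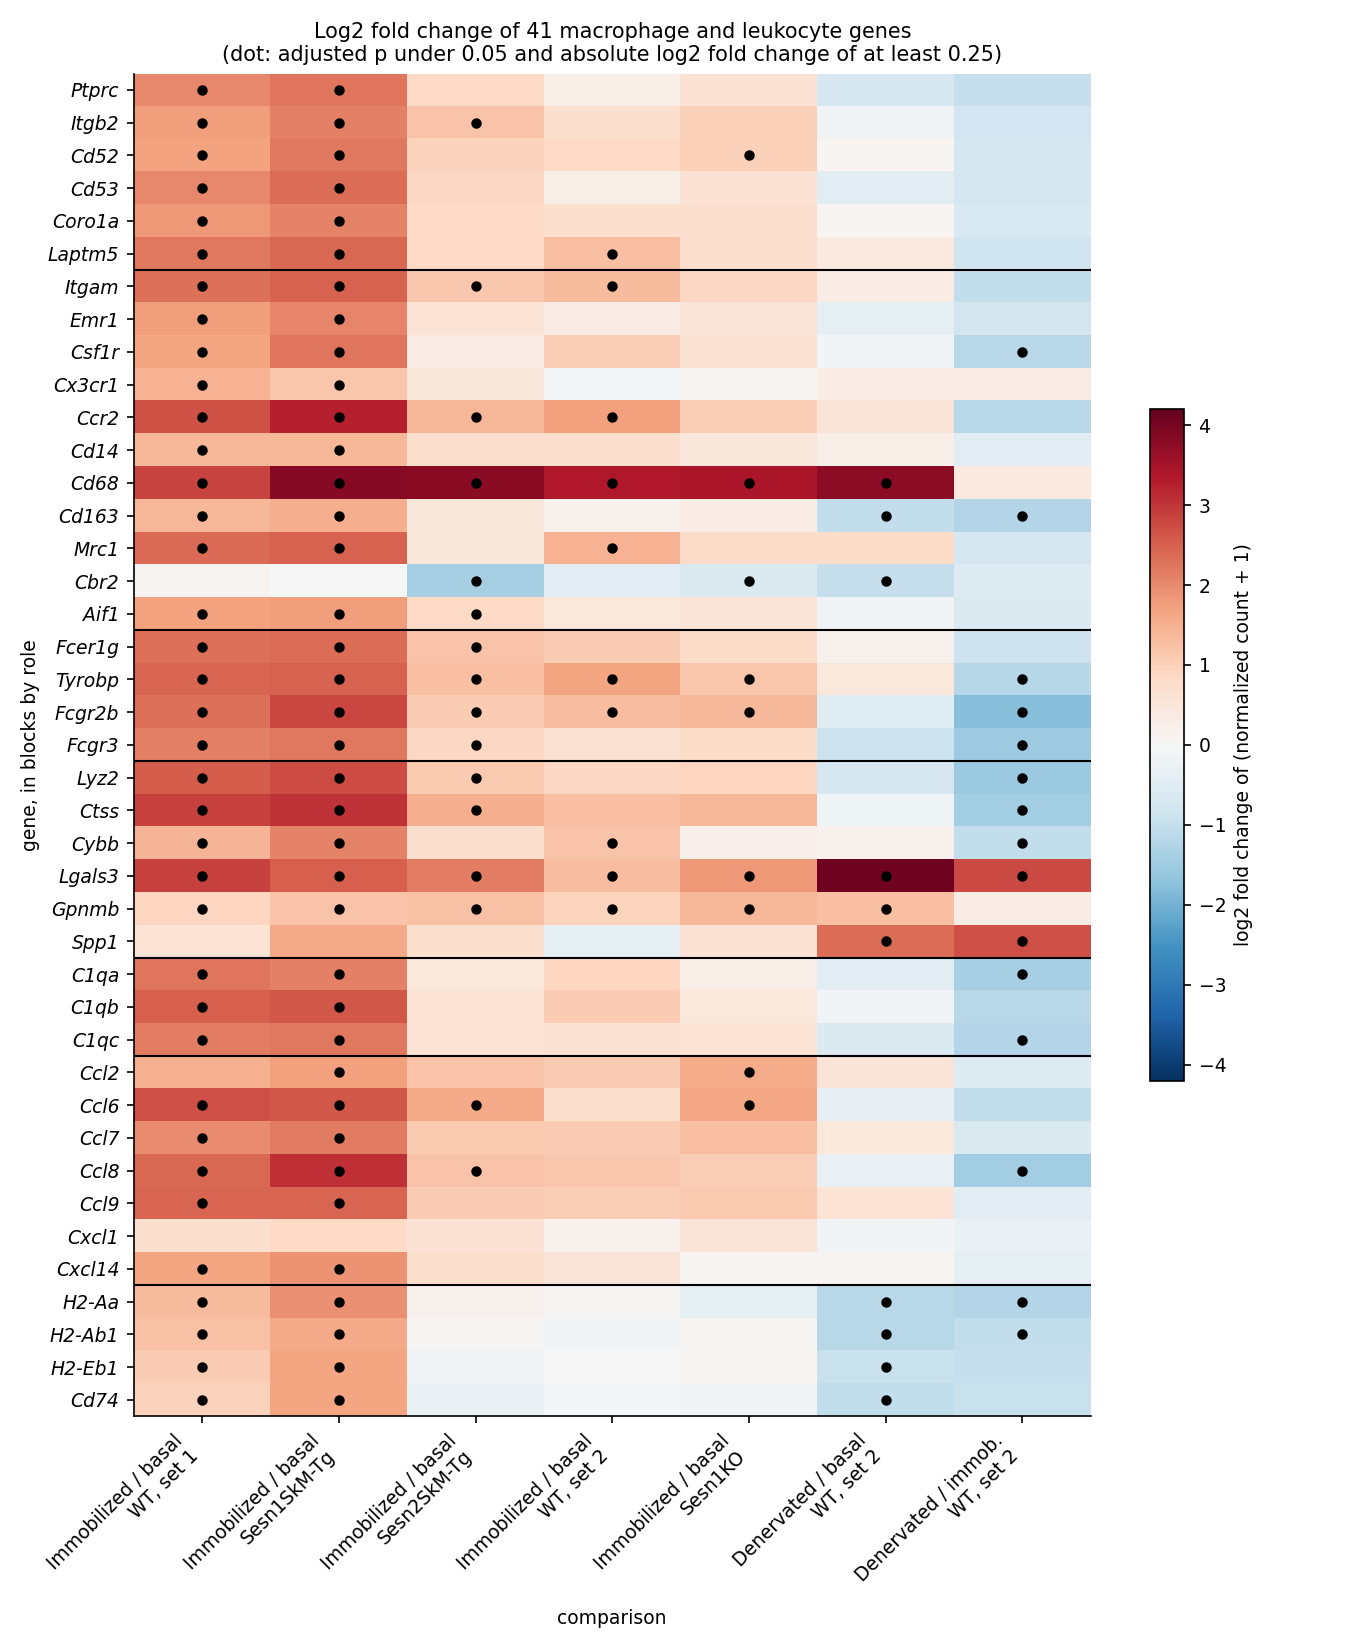
Colour gives the log2 fold change of each of the 41 genes (y axis, in blocks by role) in each comparison (x axis), and a dot marks an adjusted p under 0.05 with a log2 change of 0.25 or more either way. The columns of WT muscle of set 1 and Sesn1SkM-Tg are coloured for most genes, with 37 and 38 higher, and Cbr2 is the palest in both. By contrast, the column of denervated against basal muscle has 4 genes higher and 6 lower, the class II block among them.

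Denervation removes the nerve itself, whereas immobilization leaves it in place. In set 2, 4 of the 41 genes were higher and 6 lower in denervated than in basal WT muscle, where 27.8% of all genes were called higher and 27.7% lower. The share of the list called was thus below that of all genes in both directions. The median of the list was -0.10, with 19 of the 41 genes positive. An unadjusted p under 0.05 was found for 11 genes, and the share of all genes under that p is not given here. The 4 higher genes were Lgals3, Cd68, Spp1 and Gpnmb, and the 6 lower were Cd163, Cbr2, H2-Aa, H2-Ab1, H2-Eb1 and Cd74. The genes called in every fit without 1 library were Cd68, Cd163, Cbr2, Lgals3, Gpnmb and Spp1. The number called was 6 without denervated replicate 4 and 12 without denervated replicate 1 or basal replicate 4.

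The scaling of the libraries bears on these directions. The summed value of the denervated libraries was lower, and after each library was rescaled to the same sum, the median of all genes moved by 0.35. All genes were then called higher in 46.6% and lower in 13.8%, and of the 41 genes 5 were higher and 0 lower, with a median of 0.31, or -0.04 relative to the median of all genes. The 5 were Mrc1 (1.18) and the 4 genes named as higher above, and no lower call held under that scaling.

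Lgals3 rose most. It read 1.90, 1.10, 2.63 and 1.71 in basal and 56.3, 54.2, 41.1 and 35.0 in denervated muscle (4.07 ± 0.44, adjusted p = 9.9e-08). Its lowest denervated library exceeded every library of the other groups of the set except 1 immobilized Sesn1KO library at 49.5. Cd68 read 30.3, 45.8, 31.1 and 17.9 in denervated muscle (3.77 ± 0.29, adjusted p = 9.6e-10), close to its immobilized values. Spp1, which encodes osteopontin, read 6.17, 1.93, 3.76 and 0.187 in basal and 20.6, 13.5, 19.7 and 11.6 in denervated muscle (2.36 ± 0.66, adjusted p = 0.0043), without overlap. Gpnmb read 1.41, 2.79, 2.60 and 0.938 against 6.70, 4.51, 7.15 and 5.19 (1.27 ± 0.34, adjusted p = 0.0033).

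**Figure D3:**
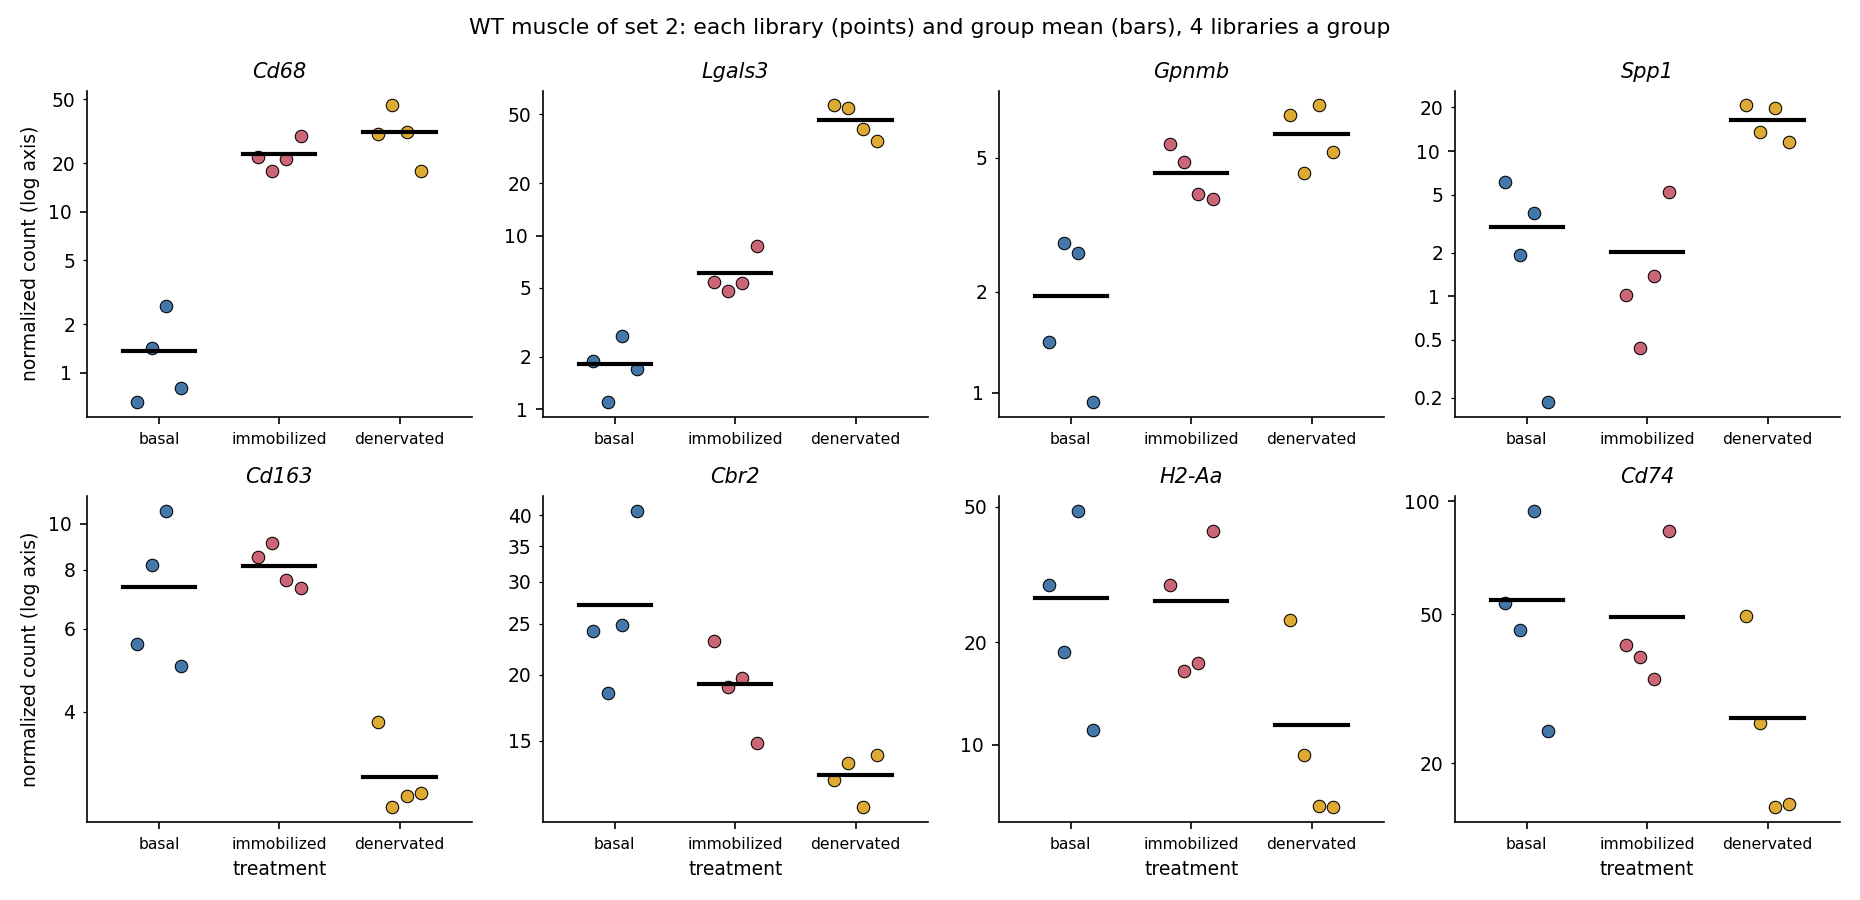
Each panel plots the normalized count of one gene (log axis) in the WT libraries of set 2 by treatment, a point for each library and a bar for the group mean. Lgals3 stands at 35.0 to 56.3 in denervated muscle and at 4.79 to 8.70 in immobilized muscle, Cd68 is high in both, and Cd163 is lowest in denervated muscle at 2.51 to 3.81.

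Cd163, the scavenger receptor for hemoglobin bound to haptoglobin, read 5.58, 8.18, 10.7 and 4.99 in basal and 3.81, 2.51, 2.65 and 2.69 in denervated muscle. All denervated libraries were lower (-1.05 ± 0.28, adjusted p = 0.0032). Cbr2 read 24.2, 18.4, 24.9 and 40.8 against 12.6, 13.6, 11.2 and 14.1 (-0.96 ± 0.23, adjusted p = 0.0013), also without overlap. These were the only genes of the list whose denervated libraries were all below the basal ones, where 26.3% of all genes were apart in that direction and 27.4% in the other, in which 4 genes of the list were apart.

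H2-Aa, the alpha chain of a class II molecule, read 29.5, 18.8, 48.7 and 11.1 in basal and 23.3, 9.34, 6.62 and 6.55 in denervated muscle (-1.16 ± 0.40, adjusted p = 0.019). H2-Ab1 read 26.1, 18.4, 39.0 and 9.003 against 20.2, 9.68, 5.87 and 4.55 (-1.15 ± 0.38, adjusted p = 0.013). The groups overlapped in both, and both rested on single libraries. H2-Aa was lost in 4 of the 8 fits, with a change of -0.82 and an adjusted p of 0.093 at most, among them those without basal replicate 3 or denervated replicate 4. H2-Ab1 was lost without either of these (adjusted p up to 0.065), H2-Eb1 in 6 (up to 0.2) and Cd74 in 4 (up to 0.14).

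Other cell types moved in the same comparison. All 7 endothelial markers, 6 of 6 smooth muscle and pericyte markers, 8 of 8 myofiber markers, 6 of 6 adipocyte markers, 3 of 7 fibroblast markers and 2 of 6 Schwann cell markers were lower. The summed endothelial markers stood at 284.9 to 365.8 in basal and 142.5 to 182.3 in denervated muscle, and the myofiber markers at 124700 to 137400 and 49930 to 65150. Of the satellite cell markers 2 of 4 were higher. Their part in the lower values of Cd163, Cbr2 and class II genes was not tested. All these marker calls and sums are on the deposited scale, and the marker calls after rescaling to equal sums are not given here.

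For the 4 genes that were higher in every fit without 1 library and also after rescaling, the promoter is shown, that is, the 250 bases before the first listed RefSeq start of Cd68 (chr11:69666171-69666420, minus strand), Lgals3 (chr14:47373610-47373859, plus strand), Gpnmb (chr6:49036268-49036517, plus strand) and Spp1 (chr5:104434861-104435110, plus strand), in build GRCm38.p6. Sequences run 5′ to 3′ along the gene's own strand. Capitals mark the AP-1 motif TGACTCA, whose other strand reads TGAGTCA, and the CCAAT box, written CCAAT or ATTGG.
Cd68: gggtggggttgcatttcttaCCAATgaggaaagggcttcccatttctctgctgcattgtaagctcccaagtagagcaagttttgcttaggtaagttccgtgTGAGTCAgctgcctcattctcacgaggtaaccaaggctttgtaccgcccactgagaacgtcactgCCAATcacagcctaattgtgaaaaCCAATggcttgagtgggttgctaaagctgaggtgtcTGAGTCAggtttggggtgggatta
Lgals3: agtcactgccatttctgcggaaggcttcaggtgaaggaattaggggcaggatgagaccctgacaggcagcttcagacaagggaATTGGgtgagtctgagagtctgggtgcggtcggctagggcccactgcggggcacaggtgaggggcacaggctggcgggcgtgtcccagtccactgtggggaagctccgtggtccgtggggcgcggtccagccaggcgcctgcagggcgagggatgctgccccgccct
Gpnmb: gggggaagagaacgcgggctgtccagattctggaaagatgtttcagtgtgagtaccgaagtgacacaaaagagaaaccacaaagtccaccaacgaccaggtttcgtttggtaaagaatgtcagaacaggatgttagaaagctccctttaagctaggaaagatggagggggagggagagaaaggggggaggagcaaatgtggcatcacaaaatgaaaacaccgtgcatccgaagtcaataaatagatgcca
Spp1: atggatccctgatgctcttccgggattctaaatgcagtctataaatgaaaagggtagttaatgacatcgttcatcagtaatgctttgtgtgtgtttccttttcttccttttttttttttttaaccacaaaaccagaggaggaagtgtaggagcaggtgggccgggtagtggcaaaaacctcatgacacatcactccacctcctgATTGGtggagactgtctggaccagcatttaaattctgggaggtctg

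Of the 41 genes 30 had such a window in the RefSeq table. Cd68 was the only one of the 30 with TGACTCA on either strand, which it held at 149 and at 24 bases before the start, while 4.43% of all 27025 windows of this length held the motif. ATTGG on either strand was present in 11 of the 30 and in 34.5% of all windows. In Spp1 it lay 46 and in Lgals3 167 bases before the start, while the window of Gpnmb held none of the motifs searched. GAGGAA, the core of sites for the myeloid factor PU.1, was found in 14 of the 30 and in 23.1% of all windows, and the longer GAGGAAGT, which contains it, in 2 of the 30 (Spp1 and C1qc) and in 2.44%. Such matches describe letters and not binding.

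The direct comparison of denervated with immobilized WT muscle gave 2 genes higher and 13 lower, where 20.5% and 18.4% of all genes were called. The median of the list was -0.86. At an unadjusted p under 0.05 there were 22 genes, and the share of all genes under that p is not given here. This comparison and both against basal muscle share their libraries in pairs. Lgals3 (2.76 ± 0.44, adjusted p = 3.9e-05) and Spp1 (2.72 ± 0.66, adjusted p = 0.0023) were higher after denervation. Spp1 read 1.03, 0.442, 1.37 and 5.21 in immobilized muscle, all under the lowest denervated library, 11.6. Cd68 did not differ by more than the spread, with a difference of 0.40 ± 0.29 (adjusted p = 0.3).

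The lower genes came from most roles. Fcgr2b, the inhibitory Fc receptor, read 10.2, 7.14, 4.04 and 9.75 in immobilized and 3.29, 1.77, 0.661 and 0.716 in denervated muscle (-1.80 ± 0.44, adjusted p = 0.0027), and Fcgr3, an activating one, differed by -1.54 ± 0.40 (adjusted p = 0.0037). Cd163 read 8.49, 9.09, 7.62 and 7.30 in immobilized muscle, which placed every denervated library lower (-1.23 ± 0.28, adjusted p = 0.0015). Lyz2 (-1.56), Ctss (-1.46), Ccl8 (-1.45), C1qa (-1.39), C1qc (-1.24), H2-Aa (-1.22), Tyrobp (-1.20), Csf1r (-1.15), H2-Ab1 (-1.05) and Cybb (-1.02) completed the 13, and none of these 10 was called in all 8 fits without 1 library (adjusted p up to 0.15). The total was 20 without denervated replicate 1 and 6 without denervated replicate 4. It was 7 without denervated replicate 3 or immobilized replicate 1 or 4. After rescaling to equal sums, which moved the median of all genes by 0.26, 2 genes were higher and 4 lower, namely Cd163, Fcgr2b, Fcgr3 and Ccl8.

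Genotypes were compared within a set, and all comparisons with WT of a set share its WT libraries. The paper describes littermate controls for each transgenic line, but the labels of set 1 give a single WT group. Which line these WT mice were littermates of is not given, so line or litter and transgene cannot be told apart. Between Sesn1SkM-Tg and WT muscle 0 of the 41 genes were called by limma, either basal, where 0.0292% of all genes were, or immobilized, where 0.00730% were. At an unadjusted p under 0.05 there were 2 genes in basal and 0 in immobilized muscle. The immobilization effect itself differed between these genotypes for 0 genes, with 0 at an unadjusted p under 0.05, and 0 of all 13705 genes were called there. For Cd68 the difference in effect was 0.98 ± 0.56 and for Ptprc 0.22 ± 0.58, so that changes of this size could not be resolved.

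Sesn2SkM-Tg muscle differed from WT in 1 gene of the list at rest. Cbr2 read 31.2, 39.0, 37.5 and 33.7 against 25.5, 20.8, 14.2 and 16.0 in WT (0.88 ± 0.16, adjusted p = 0.0033), without overlap, where 1.50% of all genes were called higher and 1.00% lower. It was called in all 8 fits without 1 library, but not when the basal Sesn2SkM-Tg and WT libraries were fitted alone (adjusted p = 0.065). Everything else on the list had an unadjusted p of 0.05 or more.

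In immobilized muscle 6 of the 41 genes were lower in Sesn2SkM-Tg than in WT and 0 higher, where 1.29% and 1.65% of all genes were called. The median of the list was -1.04. At an unadjusted p under 0.05 there were 28 genes, and the share of all genes under that p is not given here. Only 3 genes of the list had a positive difference. For 13 of the 41 genes the Sesn2SkM-Tg libraries were all below the WT ones, compared with 7.21% of all genes. The 6 were Emr1 (-1.49), Ccl8 (-1.43), C1qb (-1.35), Csf1r (-1.18), Cx3cr1 (-0.98) and Cbr2 (-0.63), with adjusted p between 0.023 and 0.047.

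Emr1 read 4.05, 3.65, 1.29 and 1.95 in immobilized Sesn2SkM-Tg and 8.27, 6.63 and 13.0 in immobilized WT muscle. Csf1r read 13.2, 17.2, 6.83 and 15.5 against 25.2, 23.5 and 43.3. C1qb, the B chain of C1q, read 12.0, 15.7, 5.15 and 16.2 against 29.9, 22.2 and 42.1. In these 3 genes no transgenic library reached the lowest WT one, and the same held for Ccl8, with 1.04, 3.42, 0.995 and 2.89 against 8.68, 4.21 and 8.42.

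No call among the 6 held in all 7 fits without 1 library. Without immobilized WT replicate 3 or without Sesn2SkM-Tg replicate 3 there were 0 calls, the highest adjusted p of the 6 genes in any fit lying between 0.14 (Emr1) and 0.26 (Cx3cr1). There were 1 without Sesn2SkM-Tg replicate 1 and 2 without WT replicate 1. Rescaled to equal sums, 4 genes were lower (Emr1, Cbr2, C1qb and Ccl8). With the replicate number fitted as a block, 2 genes were called. The summed markers of fibroblasts stood at 444.3 to 928.7 in immobilized Sesn2SkM-Tg and 929.4 to 1721 in immobilized WT muscle, mast cell markers at 2.98 to 12.4 and 6.56 to 19.0, and endothelial markers at 313.7 to 407.2 and 258.8 to 301.6, and their part in the result was not tested.

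**Figure D4:**
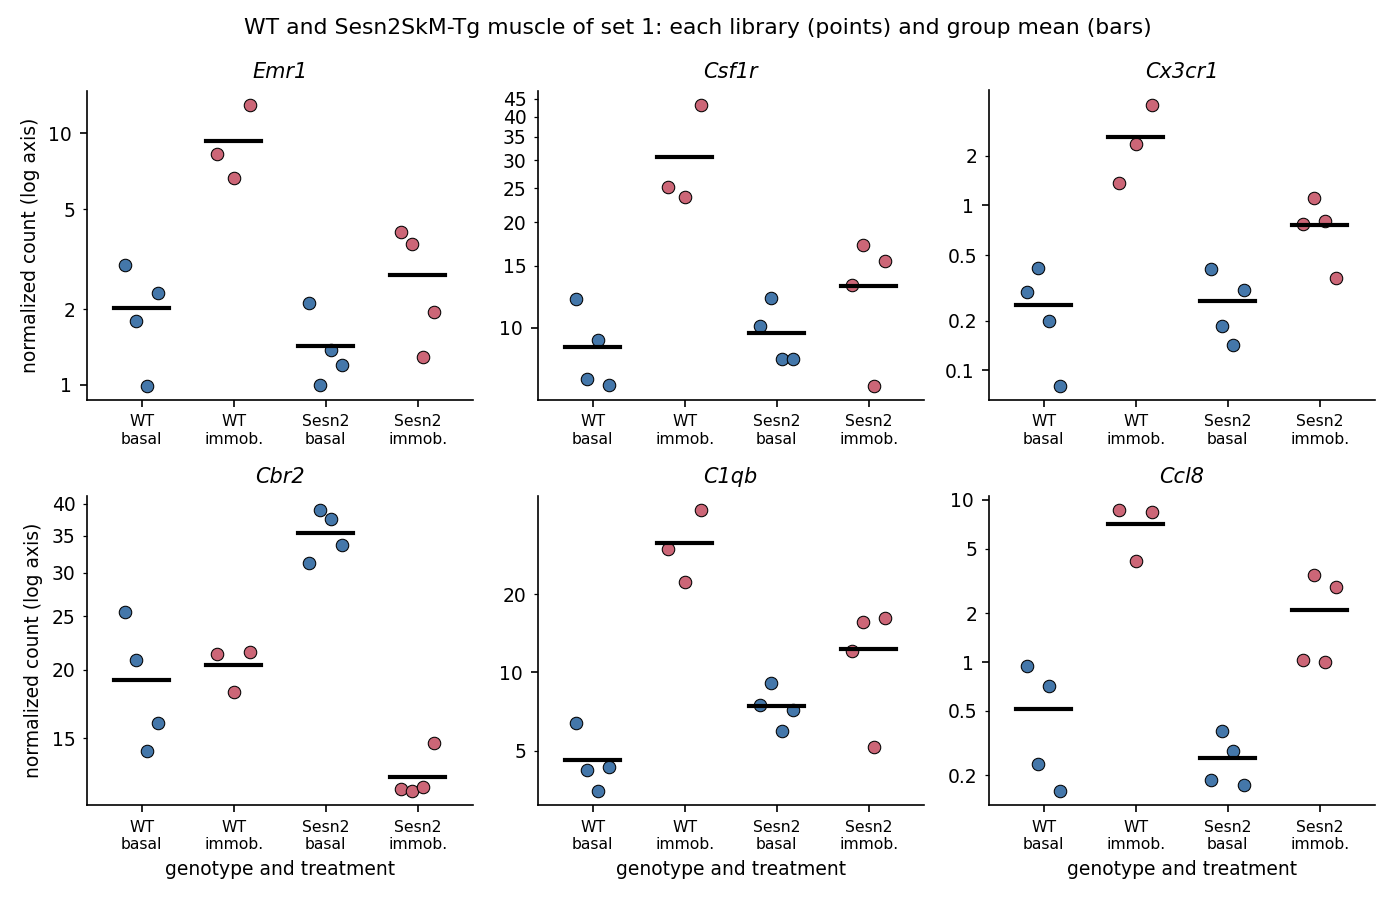
Each panel plots the normalized count of one gene (log axis) in the WT and Sesn2SkM-Tg libraries of set 1 by genotype and treatment, with a point for each library and a bar for the group mean. Cbr2 falls from 31.2 to 39.0 in basal to 12.0 to 14.7 in immobilized Sesn2SkM-Tg muscle, and Emr1 stands at 1.29 to 4.05 in immobilized Sesn2SkM-Tg against 6.63 to 13.0 in immobilized WT muscle.

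Tested as a difference between immobilization effects, 1 gene of the list was called, Cbr2, at -1.52 ± 0.23 (adjusted p = 0.024). It was the only gene of the whole table called there (0.00730%). Its call was lost in 5 of the 15 fits without 1 library, among them those without immobilized WT replicate 3 and Sesn2SkM-Tg replicate 3 (adjusted p up to 0.1), with the change staying between -1.66 and -1.39. It was also lost when both sets were fitted together (adjusted p = 0.055), and when the replicate number was fitted as a block. For the list the median difference in effect was -1.18, and 22 genes had an unadjusted p under 0.05. The share of all genes under that p is not given here. The genes moved together within libraries, as immobilized WT replicate 3 was highest of its group for 39 genes. Immobilized Sesn2SkM-Tg replicate 3 was lowest for 33.

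Libraries labelled Sesn1KO gave 0 calls against WT among the 41 genes. In basal muscle limma called 0 with 1 at an unadjusted p under 0.05 (0.0587% of all genes called higher and 0.0880% lower), and in immobilized muscle 0 with 2 (0.528% and 0.418%). The difference in the immobilization effect gave 0 calls and 0 at an unadjusted p under 0.05 (0.0147% and 0.00734%). The widest differences in immobilized muscle were Spp1 (1.13 ± 0.66) and Ccr2 (-1.06 ± 0.53), so that differences of this size could not be resolved.

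The effect of immobilization in WT muscle was larger in set 1 than in set 2 for 39 of the 41 genes by sign, with a median difference of 1.11. The share of all genes with that sign is not given here. Single libraries weighed on this count. Immobilized replicate 3 of set 1 was the highest of its group for 39 of the 41 genes, and basal replicate 3 of set 2 for 34. Only Cx3cr1, the fractalkine receptor, was called (1.50 ± 0.40, adjusted p = 0.018), while 3.04% of all genes were called in this direction and 3.16% in the other. An unadjusted p under 0.05 was found for 18 genes of the list, and the share of all genes under that p is not given here. Cx3cr1 read 0.297, 0.418, 0.200 and 0.0809 in basal and 1.36, 2.35 and 4.08 in immobilized muscle of set 1. In set 2 it read 0.328, 0.808, 1.17 and 0.104 in basal and 0.461, 0.356, 0.710 and 0.535 in immobilized muscle. The call was lost without immobilized replicate 3 of set 1 or without basal replicate 3 of set 2 (adjusted p up to 0.1), and 4 genes were called without basal replicate 4 of set 2. Values of Cx3cr1 were near the lower end of the scale, and how the sets were combined is not given in the sources used here, so the set and its processing cannot be told apart.

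A wider list of myeloid genes, 72 names of receptors, signalling proteins and chemokines of which 63 were in the table, was set beside these. After immobilization 48 of 63 (76.2%) were higher in WT of set 1, 54 (85.7%) in Sesn1SkM-Tg and 17 (27.0%) in Sesn2SkM-Tg muscle, and 0 were lower in each. Of all genes 14.9%, 18.2% and 15.0% were higher in these comparisons. The count was 22 in WT of set 1 without immobilized replicate 3, and in Sesn2SkM-Tg 8 without immobilized replicate 2 and 10 without basal replicate 3. In set 2, where 62 were tested, its shares were below those of all genes. It gave 8 higher (12.9%) and 2 lower in WT, 8 higher (12.9%) and 3 lower in Sesn1KO muscle, and 6 higher (9.68%) and 11 lower (17.7%) after denervation, and 5 were higher in Sesn1KO muscle without immobilized replicate 2. Tlr4, the receptor for bacterial lipopolysaccharide, rose most after denervation (2.63 ± 0.21, adjusted p = 1.4e-09), from a mean of 1.57 to 14.9. Cxcl10, an interferon-induced chemokine, rose by 1.85 ± 0.35 (adjusted p = 1.3e-04). Complement C3 fell by 1.58 on the log2 scale, and Cxcl12, a chemokine of stromal cells, by 1.08. Tlr4 and Cxcl12 are also expressed by cells other than leukocytes. Calls of this wider list are on the deposited scale, and those after rescaling to equal sums are not given here.

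Markers of lymphocytes and granulocytes were few in the table. Matches were found for 5 of 11 neutrophil names, of which 1 was higher in WT of set 1, 3 in Sesn1SkM-Tg and 0 in WT of set 2, and after denervation 1 was higher and 1 lower. The summed neutrophil markers stood at 0.987 to 2.75 in basal and 5.05 to 54.8 in immobilized Sesn2SkM-Tg muscle. In Sesn1KO muscle they stood at 1.335 to 2.51 and 4.03 to 13.3. In WT of set 2 the sums overlapped, at 0.976 to 21.4 and 1.25 to 8.18. Of 12 T and NK cell names 2 were matched and neither was called in WT muscle. The only B cell gene, Ighm, was lower in all 5 comparisons of immobilized with basal muscle and after denervation (-1.98 ± 0.45, adjusted p = 8.1e-04). Mast cell markers were higher for 3 of 5 in WT of set 1 and lower for 3 of 5 after denervation, dendritic cell markers higher for 2 of 4 and lower for 2 of 4. None of the 5 red blood cell genes was called in WT muscle. For these markers too, calls after rescaling to equal sums are not given here.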

How the data were processed

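RNAseq libraries (42) from TA muscle were assigned to 11 groups and 2 sets by their labels. Per the study's methods and processing notes, the authors made NEBNext Ultra libraries from QIAzol and RNeasy preparations of RNA, trimmed reads with Cutadapt (1.7.1), quantified them against GRCm38 with RSEM (1.2.20) and normalized them with limma. The signal deposited for each gene is a normalized count, linear and never 0. Read depth is unknown, since the values are not multiples of a whole read. All per-sample columns were used, and libraries of a group correlated at 0.959 to 0.991 on the log2 scale.

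Sets were fitted separately, because library preparation and normalization may differ between them. The values also look adjusted per gene between the sets, which was not tested. Fits used limma 3.58.1 in R 4.3.3. A gene entered where any library of the set reached 1 (13705 in set 1 and 13629 in set 2; all 41 genes passed in both). Log2(value + 1) was fitted with 1 coefficient per group and eBayes with a trend, so fold changes of low genes are understated. Adjustment was by Benjamini-Hochberg over all genes tested (two-sided p), and a call required an adjusted p under 0.05 together with a log2 change of 0.25 or more either way. The difference between sets was fitted over both (13763 genes). Counts of the list at an unadjusted p under 0.05 are given without the share of all genes. Recovery of known changes was checked on simulated data.

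The members, the other gene lists and the tests were chosen with earlier results of these data known. Genes named are fixed markers (Ptprc, Emr1, Csf1r, Itgam, Cd68 and Lyz2), in each role the 2 genes with the largest change after denervation, the 3 largest called increases and decreases of each immobilization comparison and every gene called between genotypes or between effects, 26 in all, and genes in counts of 5 or fewer. Genes named beyond these, such as Gpnmb, Mrc1, Laptm5, H2-Eb1 and Cd74, were chosen after their values were seen. Further lists covered other myeloid genes and markers of neutrophils, T and NK cells, B cells, mast cells, dendritic cells, red blood cells, myofibers, endothelium, fibroblasts, Schwann cells, smooth muscle, adipocytes and satellite cells. Exon lengths came from GENCODE M21 (41 of 41 genes matched, 8 with exons shared with another gene), promoters from RefSeq (GRCm38.p6), and figures were drawn with matplotlib 3.10.9. Alternatives varied the pseudocount, the filter, the scaling, the threshold, the samples fitted, the replicate block and the libraries included.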

Additional observations from a re-analysis of the deposited data

Results flagged for a closer look

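Within groups of 4 libraries, 234 combinations of a named gene and a group were tested for a library far from the others (Dixon's test at 95%), and 9 were found, or 3.85%, where chance alone gives about 1 in 20. In immobilized Sesn1KO muscle, replicate 2 had Lgals3 at 49.5 against 4.78 to 6.63 in the other 3 libraries and Cd163 at 22.3 against 5.78 to 7.25. This library was also the highest of its group for 38 of the 41 genes. In denervated WT muscle, replicate 1 had Cd163 at 3.81 against 2.51 to 2.69. In immobilized WT muscle of set 2, replicate 4 had Ccr2 at 27.1 against 10.2 to 11.8. In immobilized Sesn2SkM-Tg muscle, replicate 4 had Cbr2 at 14.7 against 12.0 to 12.2.

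The other 4 were in basal muscle. Csf1r was 8.99 in Sesn1KO replicate 4 against 12.7 to 13.6, and Lyz2 was 14.2 in Sesn1SkM-Tg replicate 1 against 25.1 to 28.1. Ctss was 3.95 in Sesn1SkM-Tg replicate 2 against 2.29 to 2.48. Ccl2 was 0.875 in WT replicate 1 of set 1 against 0.0676 to 0.0722, all under 1 on this scale.

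Effects of immobilization that differed by a test of the difference itself were those of Cbr2 between Sesn2SkM-Tg and WT muscle (-1.52 on the log2 scale) and of Cx3cr1 between WT muscle of set 1 and set 2 (1.50). The call of Cbr2 was lost when both sets were fitted together (adjusted p = 0.055), with the replicate number as a block and in 5 of 15 fits without 1 library. That of Cx3cr1 was lost without either of 2 libraries.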

How the results depend on the processing

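Among the 26 genes named by rule, no called gene reversed its direction, and the other genes of the list were not counted here. The median of the list after denervation changed sign with rescaling to equal sums, from -0.10 to 0.31. Of 2030 combinations of a named gene and an alternative, 1810 kept direction and call and 220 lost the call. Of 188 medians of the list 185 stayed within the spread. The fits without 1 library were not among these medians. Several alternatives, such as fitting the compared groups alone, cannot move a median, so part of the 185 was fixed in advance. Of the counts of genes called, these moved by more than 1.5 times. With a pseudocount of 5, Sesn2SkM-Tg immobilization gave 7 and WT of set 2 gave 6, and with a pseudocount of 0.1 Sesn2SkM-Tg against WT immobilized muscle gave 3 and the difference between sets 0. Fitting the compared groups alone, WT of set 2 gave 18, denervated against immobilized muscle 25, Sesn2SkM-Tg against WT 0 in basal and 2 in immobilized muscle, and the difference between sets 5. Rescaling to equal sums gave 5 for denervated against basal and 6 for denervated against immobilized muscle. A log2 threshold of 1 gave 0 for Sesn2SkM-Tg against WT basal muscle. Fitting both sets together gave 3 for Sesn2SkM-Tg against WT immobilized muscle and 0 for the difference in effect. The cause was not tested in any of these.

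Leaving out 1 library gave 26 to 37 genes for immobilization in WT of set 1, 36 to 38 in Sesn1SkM-Tg, 7 to 25 in Sesn2SkM-Tg, 4 to 16 in WT of set 2 and 5 to 17 in Sesn1KO muscle. It gave 6 to 12 for denervated against basal, 6 to 20 for denervated against immobilized, 0 to 7 for Sesn2SkM-Tg against WT immobilized muscle (1 in all fits for basal), 0 to 1 for the difference in effect and 0 to 4 for the difference between sets. The comparisons of Sesn1SkM-Tg and Sesn1KO with WT gave 0 in every such fit. Leaving out 2 libraries together, chosen after seeing the data, gave 25 in WT of set 1 (without immobilized replicate 3 and basal replicate 1) and 10 after denervation (without basal replicate 3 and denervated replicate 1). The counts of the wider myeloid list without 1 library, and of genes called in every such fit of several comparisons, were likewise added after seeing the data.

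The labels number replicates alike in each group. In no comparison of treatments were all same-numbered pairs correlated above 0.1 (lowest -0.22, highest 0.15), so the numbers were not taken as pairs. Between genotypes such pairs ranged from -0.45 (Sesn2SkM-Tg and WT, basal) to 0.53 (Sesn1SkM-Tg and WT, basal). In the latter comparison 3 of 4 pairs were above 0.1. What equal numbers share was not tested. Every library correlated best with its own number in immobilized against basal Sesn1SkM-Tg muscle alone. With the replicate block, Sesn2SkM-Tg against WT immobilized muscle gave 2 and the difference in effect 0, and the other counts stayed within 1.5 times. With depth unknown, genes near 1 or below, such as Cx3cr1, Ccl2 and Cxcl1, have changes that depend on the pseudocount.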
